A study of Homo sapiens with 12 samples.

Results

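The genes described here encode the proteins that turn plasminogen into plasmin at the cell surface, with 1 inhibitor of that step. They are PLAU (urokinase), PLAUR (the urokinase receptor), PLAT (tissue-type plasminogen activator) and SERPINE2 (protease nexin-1). They were taken by gene name from both deposited expression tables, and the transcripts of each gene were summed. All 4 were found in both tables, as 4 of 13407 genes and 15 of 44112 transcripts in the first table, and as 4 of 11504 genes and 12 of 29204 transcripts in the second.

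RNA was measured in MCF-12A cells, an immortalised, non-tumorigenic human breast epithelial line, in 6 libraries labelled TGFbeta1 and 6 labelled control, for which the series text names a vehicle. Replicates 1 to 3 of both groups form the first set and replicates 4 to 6 the second set, each with a table of its own. The labels used here name no dose, duration or vehicle. Nothing in the labels says that replicates came from separate cultures, so p-values measure the spread between these libraries, which may be technical.

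Plasmin is a broad serine protease that dissolves fibrin, cleaves matrix proteins and activates other proteases. Urokinase is secreted as an inactive chain, binds its receptor on the cell surface and is activated there, while tissue-type activator is best known for acting on fibrin. Serpins such as protease nexin-1 trap the active proteases in complexes that endocytic receptors of the LDL receptor family remove.

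Values are FPKM, a fragment count per transcript length relative to the library total, so levels can be set side by side between genes. Library sums of FPKM ran from 291802 to 318270 in the first set and from 338968 to 358433 in the second, and 10242 to 10518 genes reached 1 FPKM in a library. Read depth is unknown. The TGFbeta1 label was checked on 10 genes known to respond to TGFbeta: SMAD7, SKIL, SMURF1, TGFBI, PMEPA1, TGM2, ITGB6, LTBP2, COL1A1 and COL5A1. The list was chosen with earlier results of these data known, so its counts are no independent test. In the first set 10 of 10 rose, with a median log2 change of 2.44. In the second set 0 of 9 tested were called, with a median of -0.16, and the change was larger in the first set for 10 of 10 by the test of the difference. The second set therefore goes against its label on these genes, and its libraries of that group are named below as the libraries labelled TGFbeta1. ITGB6, for instance, averaged 83.2 ± 2.27 FPKM with TGFbeta1 and 5.54 ± 0.974 FPKM in controls of the first set. In libraries of the second set it averaged 2.52 ± 0.801 FPKM in the libraries labelled TGFbeta1 and 2.45 ± 0.629 FPKM in controls (SD, n = 3 each). COL1A1 averaged under 1 FPKM in both groups of the second set and was not tested there. It entered the test of the difference through the first set's TGFbeta1 group, so its direction there was fixed by the minimum.

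Epithelial identity was checked on 10 markers, EPCAM, CDH1, KRT5, KRT14, KRT17, KRT18, TP63, ITGA6, LAMA3 and SFN, and each averaged at least 1 FPKM in both sets. Their summed level was 2468 to 2593 FPKM with TGFbeta1 and 3035 to 3720 FPKM in controls of the first set. It was 2298 to 2449 FPKM in the libraries labelled TGFbeta1 and 2116 to 2364 FPKM in controls of the second set. In the first set LAMA3 and ITGA6 rose and EPCAM, KRT5 and KRT18 fell, while 5 of 10 were not called. Of the uncalled, SFN had the largest log2 change, -3.26. It was listed at 21.9, 8.58 and 16.4 FPKM with TGFbeta1, against 16.4, 414 and 462 FPKM in controls, where replicate 1 stood apart. The call of KRT18 was lost without TGFbeta1 replicate 1 or 2 or control replicate 2 or 3 (adjusted p up to 0.0808). The part of this shift in the results below was not tested. Among leukocyte markers, CD68, which many cell types carry, was the one above the level tested, at 14.4 to 18.6 FPKM with TGFbeta1 and 21.9 to 23.5 FPKM in controls of the first set. In the second set it stood at 6.84 to 14.8 FPKM in the libraries labelled TGFbeta1 and 13.1 to 15.1 FPKM in controls. The endothelial markers with a value, KDR and TEK, summed to under 1 FPKM in every library. Of the 6 fibroblast and smooth muscle markers sought, PDGFRA had values in the second set alone. It averaged 0.692 ± 0.0927 FPKM in the libraries labelled TGFbeta1 and 1.31 ± 0.239 FPKM in controls. The others had no listed value in the data used here.

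The transcripts of these genes differ in ways that matter for the results, so the coding stretches in which the main transcripts part are shown first. They are written 5′ to 3′ from GRCh38 with the GENCODE v29 exons, spliced over an intron, with capitals for bases that code in this transcript and not in the other of the pair. Of the 85 capitals of PLAU-201, 57 lie in exons of PLAU-202 outside its coding sequence. PLAU-201 (ENST00000372764) begins its coding sequence with the exon for the secretion signal, and PLAU-202 (ENST00000446342) begins in another first coding exon. The stretches lie on the plus strand at chr10:73911556-73912234 and chr10:73911892-73912234.
PLAU-201: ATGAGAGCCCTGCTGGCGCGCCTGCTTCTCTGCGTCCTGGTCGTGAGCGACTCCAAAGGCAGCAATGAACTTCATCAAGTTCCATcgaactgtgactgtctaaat
PLAU-202: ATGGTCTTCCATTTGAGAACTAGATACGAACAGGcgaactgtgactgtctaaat
The 2 PLAU transcripts share 2292 exon bases, which leaves 29 exon bases found in PLAU-201 alone and 366 in PLAU-202 alone. PLAUR-203 (ENST00000340093) ends in the sequence that directs attachment of the receptor to the membrane by a lipid (GPI) anchor, while PLAUR-202 (ENST00000339082) ends in another exon without it and is known as a form that can be secreted. The stretches lie on the minus strand at chr19:43648893-43652244 and chr19:43646460-43652244.
PLAUR-203: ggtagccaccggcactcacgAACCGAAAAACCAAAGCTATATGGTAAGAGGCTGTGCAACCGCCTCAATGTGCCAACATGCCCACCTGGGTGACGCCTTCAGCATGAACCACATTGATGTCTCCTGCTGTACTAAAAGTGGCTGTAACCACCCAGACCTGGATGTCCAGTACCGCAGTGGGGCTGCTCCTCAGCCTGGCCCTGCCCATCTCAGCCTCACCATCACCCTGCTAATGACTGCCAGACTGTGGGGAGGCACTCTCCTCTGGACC
PLAUR-202: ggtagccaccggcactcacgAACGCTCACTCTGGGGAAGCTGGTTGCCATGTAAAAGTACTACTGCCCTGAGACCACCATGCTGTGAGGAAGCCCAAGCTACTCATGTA
SERPINE2-201 (ENST00000258405) and SERPINE2-202 (ENST00000409304) differ in the coding sequence by 1 codon of 3 bases, on the minus strand at chr2:223980378-223982700. They share 2161 exon bases, which leaves 34 found in SERPINE2-201 alone and 0 in SERPINE2-202 alone.
SERPINE2-201: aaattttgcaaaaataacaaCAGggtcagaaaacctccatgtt
SERPINE2-202: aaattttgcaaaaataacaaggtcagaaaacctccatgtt

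In the first set, urokinase, its receptor and protease nexin-1 rose with TGFbeta1, and tissue-type activator did not pass the test. The rise was 9.47-fold for PLAU, 3.67-fold for PLAUR and 2.70-fold for SERPINE2 by mean FPKM. So 3 of 4 genes were called higher by limma with Benjamini-Hochberg adjustment over all 10454 genes tested, of which 20.9% were called in either direction and 9% higher. The libraries of the groups did not overlap for any of the 4 genes, all higher with TGFbeta1, against 18.2% of all genes tested in that direction and 43.3% in either. The median log2 change of all genes was -0.05.

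PLAU encodes urokinase, the activator that works on the cell surface. On hg19 it spans chr10:75668935-75677255 on the plus strand (ENSG00000122861). It stood at 261, 264 and 258 FPKM in the TGFbeta1 libraries of the first set, against 34.6, 19.4 and 28.7 FPKM in controls. Every TGFbeta1 library lay far above every control, and the treated libraries were close together while the controls spread more widely. The log2 change was 3.23 (SE 0.205, 95% interval 2.73 to 3.74, adjusted p = 0.000478), the 9th largest rise of all genes tested. By mean level PLAU ranked 150 among the listed genes with TGFbeta1 and 2196 in controls. In GENCODE v29 an annotated gene on the opposite strand, C10orf55, covers 7529 of the 8321 bases of PLAU. Strand handling was not stated in the sources used here, so reads from that gene could not be told from those of PLAU.

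PLAUR encodes the receptor that holds urokinase at the membrane. On hg19 it spans chr19:44150247-44174699 on the minus strand (ENSG00000011422). Its level was 34.5, 34.6 and 35.5 FPKM in TGFbeta1 libraries of the first set, against 9.89, 7.86 and 10.8 FPKM in controls. The groups were well apart, and the log2 change was 1.78 (SE 0.118, adjusted p = 0.000553), the 89th largest rise. The RNA comes from whole cultures, so more or fewer cells expressing a gene and more or less of its RNA per cell cannot be told apart.

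PLAT encodes tissue-type plasminogen activator, known foremost from the dissolution of blood clots. On hg19 it spans chr8:42032751-42065242 on the minus strand (ENSG00000104368). It was the lowest of the 4 genes in every library, at 5.92, 5.98 and 6.14 FPKM in TGFbeta1 libraries of the first set, against 3.88, 3.76 and 5.78 FPKM in controls. The groups did not overlap, but the highest control, replicate 3, came close to the lowest treated library. The log2 change was 0.38 (95% interval -0.00437 to 0.76, adjusted p = 0.146). Without control replicate 3, the library nearest the treated ones, it was 0.54 with an adjusted p of 0.0125.

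SERPINE2 encodes protease nexin-1, a serpin that inhibits urokinase, tissue-type activator, plasmin and thrombin. On hg19 it spans chr2:224839829-224904036 on the minus strand (ENSG00000135919). It stood at 47.2, 46.1 and 46.6 FPKM in TGFbeta1 libraries of the first set, against 15.4, 16.2 and 20.1 FPKM in controls. No library of either group came near the other group. The log2 change was 1.39 (SE 0.108, adjusted p = 0.000911), the 178th largest rise.

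**Figure D1:**
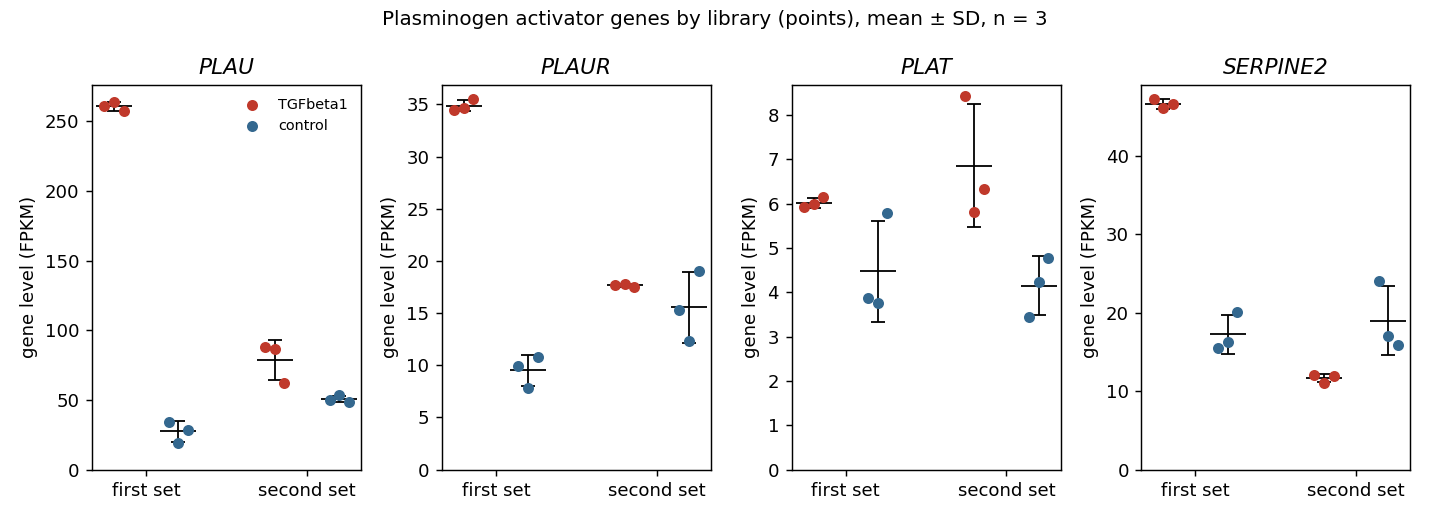
Gene level in FPKM (vertical axis, from 0, a scale of its own for each gene) of PLAU, PLAUR, PLAT and SERPINE2 in the 12 libraries, by set, with TGFbeta1 left of control. Points are libraries and black marks are means with SD (n = 3). In the first set PLAU lies at 258 to 264 FPKM with TGFbeta1 and at 19.4 to 34.6 FPKM in controls.

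The replicates of the treated group were tighter than the controls for each gene of the first set. The coefficient of variation was 1.18 to 1.94% with TGFbeta1 and 14.4 to 27.8% in controls. In the second set it was higher in the libraries labelled TGFbeta1 for PLAU (18.5% against 4.52% in controls) and PLAT (20.2% against 16.0%). It was lower there for PLAUR (0.995% against 21.8%) and SERPINE2 (4.43% against 23.4%). Each value rests on 3 libraries and was not compared with that of other genes.

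In the second set none of the 4 genes was called, and their differences were of either sign. The count of 0 of 4 compares with 34 of 10579 genes called by limma with Benjamini-Hochberg adjustment, or 0.321% (0.17% higher and 0.151% lower), and with 1182 genes at an unadjusted p under 0.05. Of the 4, PLAU, PLAT and SERPINE2 had an unadjusted p under 0.05. The groups did not overlap for PLAU and PLAT, higher in the libraries labelled TGFbeta1 (9.71% of all genes), and for SERPINE2, lower (9.62% of all genes), against 19.3% in either direction.

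PLAU stood at 87.9, 86.6 and 62.0 FPKM in the libraries labelled TGFbeta1 of the second set, against 50.3, 53.3 and 48.9 FPKM in controls. Replicate 6 lay nearest the controls, and the log2 change was 0.61 (95% interval 0.25 to 0.96, adjusted p = 0.234). Without that library it was 0.77 with an adjusted p of 0.0481. PLAUR was measured at 17.7, 17.8 and 17.5 FPKM in the libraries labelled TGFbeta1, against 15.3, 12.3 and 19.1 FPKM in controls. Here the highest library was a control, and the log2 change was 0.19 (95% interval -0.18 to 0.56, adjusted p = 0.691).

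PLAT had 8.43, 5.81 and 6.34 FPKM in the libraries labelled TGFbeta1, against 3.45, 4.24 and 4.77 FPKM in controls. Each of these labelled libraries was above each control, with replicate 4 the highest, and the log2 change was 0.60 (95% interval 0.21 to 0.998, adjusted p = 0.286). SERPINE2 had 12.01, 11.1 and 11.9 FPKM in the libraries labelled TGFbeta1, against 24.1, 17.0 and 15.9 FPKM in controls. It was the gene whose labelled libraries were all below the controls, with a log2 change of -0.64 (95% interval -1.02 to -0.25, adjusted p = 0.247).

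The size of the change was then compared between the sets in 1 fit of the 12 libraries. The change was larger in the first set for 3 of 4 genes, against 13.6% of 10571 genes called in either direction, 6.04% in this one and 7.54% in the other. The difference in log2 change, first set minus second set, was 2.63 for PLAU (95% interval 2.03 to 3.22, adjusted p = 0.000126). With PLAU-201 alone it was 3.70 and no longer called (adjusted p = 0.0598). The difference was 1.59 for PLAUR (adjusted p = 0.000561) and 2.03 for SERPINE2 (adjusted p = 0.000118). For PLAT the difference was -0.23 with a 95% interval of -0.75 to 0.30 and an adjusted p of 0.602, which leaves room for a difference of either sign.

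**Figure D2:**
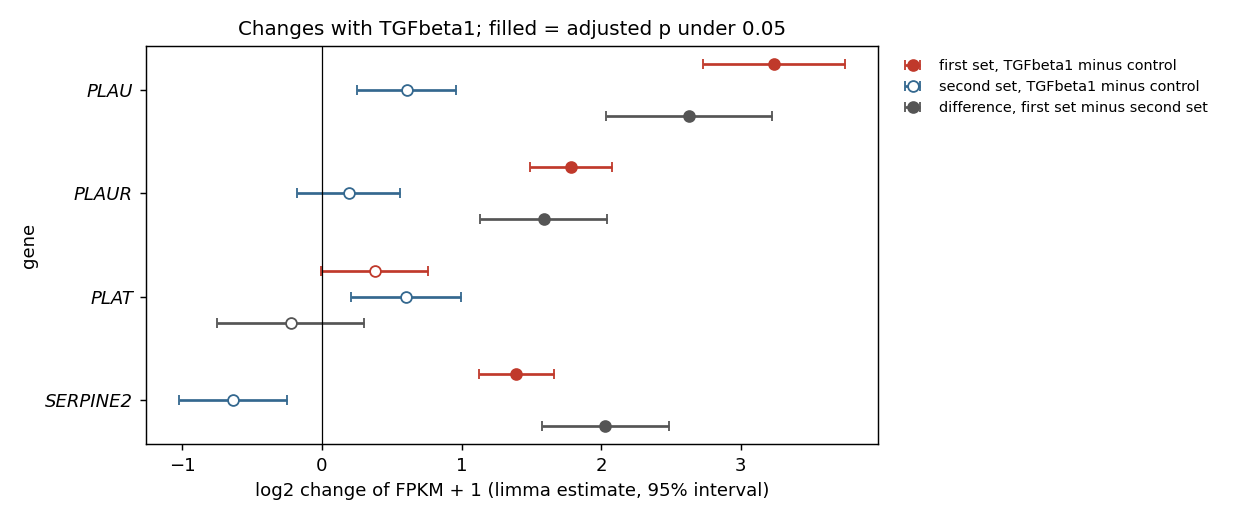
Log2 change of FPKM + 1 (horizontal axis, limma estimate with 95% interval) for the 4 genes (vertical axis): first set (red) and second set (blue), each TGFbeta1 minus control, and first set minus second set (grey). Filled points had an adjusted p under 0.05. PLAU, PLAUR and SERPINE2 are filled in the first set and in the difference between sets, and no gene is filled in the second set.

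Relative levels within a library were also set side by side between the groups, without a test. The ratio of PLAU to SERPINE2, the activator over its inhibitor, was 5.52, 5.73 and 5.54 with TGFbeta1 in the first set, against 2.24, 1.19 and 1.43 in controls. The second set gave 7.32, 7.82 and 5.20 in the libraries labelled TGFbeta1, against 2.09, 3.14 and 3.07 in controls. The groups did not overlap in either set, although SERPINE2 was higher with TGFbeta1 in the first set and lower in the labelled libraries of the second. Neither PLAU nor SERPINE2 was called in the second set. How often other gene pairs part the groups in this way was not computed.

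The ratio of PLAU to its receptor gene PLAUR was 7.56, 7.62 and 7.27 with TGFbeta1 in the first set, against 3.49, 2.46 and 2.67 in controls. The second set gave 4.98, 4.86 and 3.55 in the libraries labelled TGFbeta1, against 3.29, 4.33 and 2.56 in controls, and the groups overlapped. PLAU exceeded PLAT 43.4 ± 1.24-fold with TGFbeta1 and 6.34 ± 2.22-fold in controls of the first set. This ratio was 11.7 ± 2.79 in the libraries labelled TGFbeta1 and 12.5 ± 2.17 in controls of the second set (SD, n = 3 each).

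**Figure D3:**
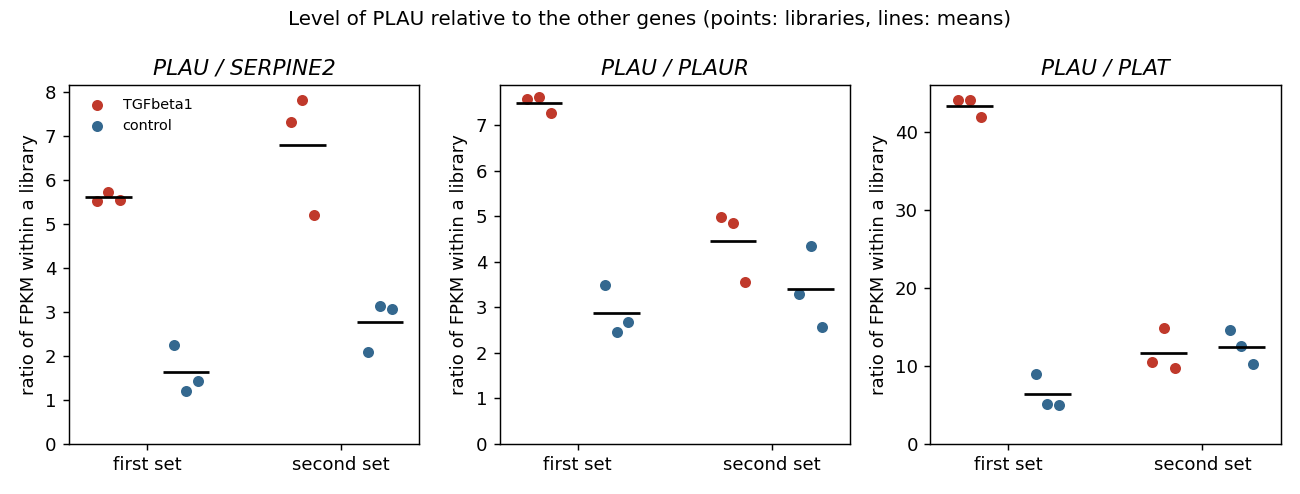
Ratio of the FPKM of PLAU to that of SERPINE2, PLAUR and PLAT within each library (vertical axes, from 0), by set, with TGFbeta1 left of control; points are libraries and lines are means. PLAU over SERPINE2 is at least 5.20 in every library labelled TGFbeta1 and at most 3.14 in every control.

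The 4 genes together came to 348 ± 2.33 FPKM with TGFbeta1 and 58.8 ± 10.1 FPKM in controls of the first set. PLAU made up 74.9 ± 0.386% of this sum with TGFbeta1 and 46.4 ± 6.92% in controls. PLAT made up 1.73 ± 0.0429% with TGFbeta1 and 7.63 ± 1.41% in controls (SD, n = 3 each).

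The order of levels was PLAU, SERPINE2, PLAUR and PLAT in every library of the first set, and no neighbours in it overlapped with TGFbeta1. In its controls the lowest PLAU value, 19.4 FPKM, was under the highest SERPINE2 value, 20.1 FPKM. In the libraries labelled TGFbeta1 of the second set PLAUR stood above SERPINE2, at 17.5 to 17.8 FPKM and 11.1 to 12.01 FPKM. In controls of that set the values of SERPINE2 and PLAUR overlapped.

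PLAU-201 carried the gene in 11 of the 12 libraries, and its share was 95.3 to 98.8% with TGFbeta1 and 97.8 to 99.2% in controls of the first set. In replicate 6 labelled TGFbeta1 of the second set, PLAU-202 was listed at 55.3 FPKM, or 89.2% of the gene, and PLAU-201 at 5.36 FPKM. In the other libraries PLAU-202 held 0.322 to 4.30% of the gene. PLAU-201 alone changed by 3.22 on the log2 scale in the first set (adjusted p = 0.00219 over 18105 transcripts tested with limma). In the second set it changed by -0.48 (adjusted p = 0.944 over 20392 transcripts), against the sign of the gene sum.

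For the receptor, PLAUR-203, the transcript that ends in the anchor sequence, rose with a log2 change of 1.81 (adjusted p = 0.00443), and PLAUR-202 rose by 1.16 (adjusted p = 0.00746). The share of PLAUR-202 was 23.8, 21.4 and 22.1% with TGFbeta1 in the first set, against 32.5, 33.2 and 28.4% in controls. All 3 treated libraries had a lower share than all 3 controls. This share was not tested, and how often shares of other transcripts part the groups in this way was not computed. The second set gave 40.8, 32.7 and 37.4% in the libraries labelled TGFbeta1, against 37.2, 37.8 and 48.6% in controls, and the groups overlapped. PLAUR-214 (ENST00000601723) lacks 147 coding bases of PLAUR-203. It was listed at 0.732, 0.839 and 0.824 FPKM with TGFbeta1 and at 0 in the 3 controls of the first set. That was 2.29 ± 0.154% of the gene with TGFbeta1. PLAUR-201 (ENST00000221264) averaged 1.70 ± 0.439 FPKM with TGFbeta1 and 0.103 ± 0.0890 FPKM in controls of that set (SD, n = 3 each). Both averaged under the minimum of 1 FPKM over the first set and were not tested there.

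SERPINE2 split unevenly among replicates, between transcripts that differ by 34 exon bases, all in SERPINE2-201. How surely reads were assigned to either was not tested. In the TGFbeta1 libraries of the first set SERPINE2-201 was listed at 26.03, 2.57 and 12.5 FPKM, or 55.1, 5.59 and 26.8% of the gene, while in controls it held 17.9, 22.3 and 16.7%. The gene sum of those treated libraries varied by 1.27%. Neither transcript was called in the first set: the change on the log2 scale was 1.37 for SERPINE2-201 (adjusted p = 0.367) and 1.12 for SERPINE2-202 (adjusted p = 0.0979 over 18105 transcripts). With SERPINE2-202 in place of the gene sum, among 10454 genes, its adjusted p was 0.0406. SERPINE2-201 of the second set held 19.5, 51.0 and 16.3% in the libraries labelled TGFbeta1, against 51.6, 44.9 and 46.2% in controls. In the authors' deposited table of the second set it had the smallest p-value of the 12 transcripts, 0.0383, with a q-value of 0.716 and a log2 fold change of -1.30.

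PLAT-201 (ENST00000220809) was the main PLAT transcript in 11 of 12 libraries. PLAT-202 (ENST00000352041) was listed at 0 in the 3 libraries labelled TGFbeta1 of the second set, against 0, 2.92 and 0.897 FPKM in its controls, so 1 control carried most of it. PLAT-206 (ENST00000520523) reached 2.11 FPKM and PLAT-205 (ENST00000519510) 1.86 FPKM in replicate 4 labelled TGFbeta1, the library with the highest PLAT sum. No transcript of the 4 genes was called in the second set.

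**Figure D4:**
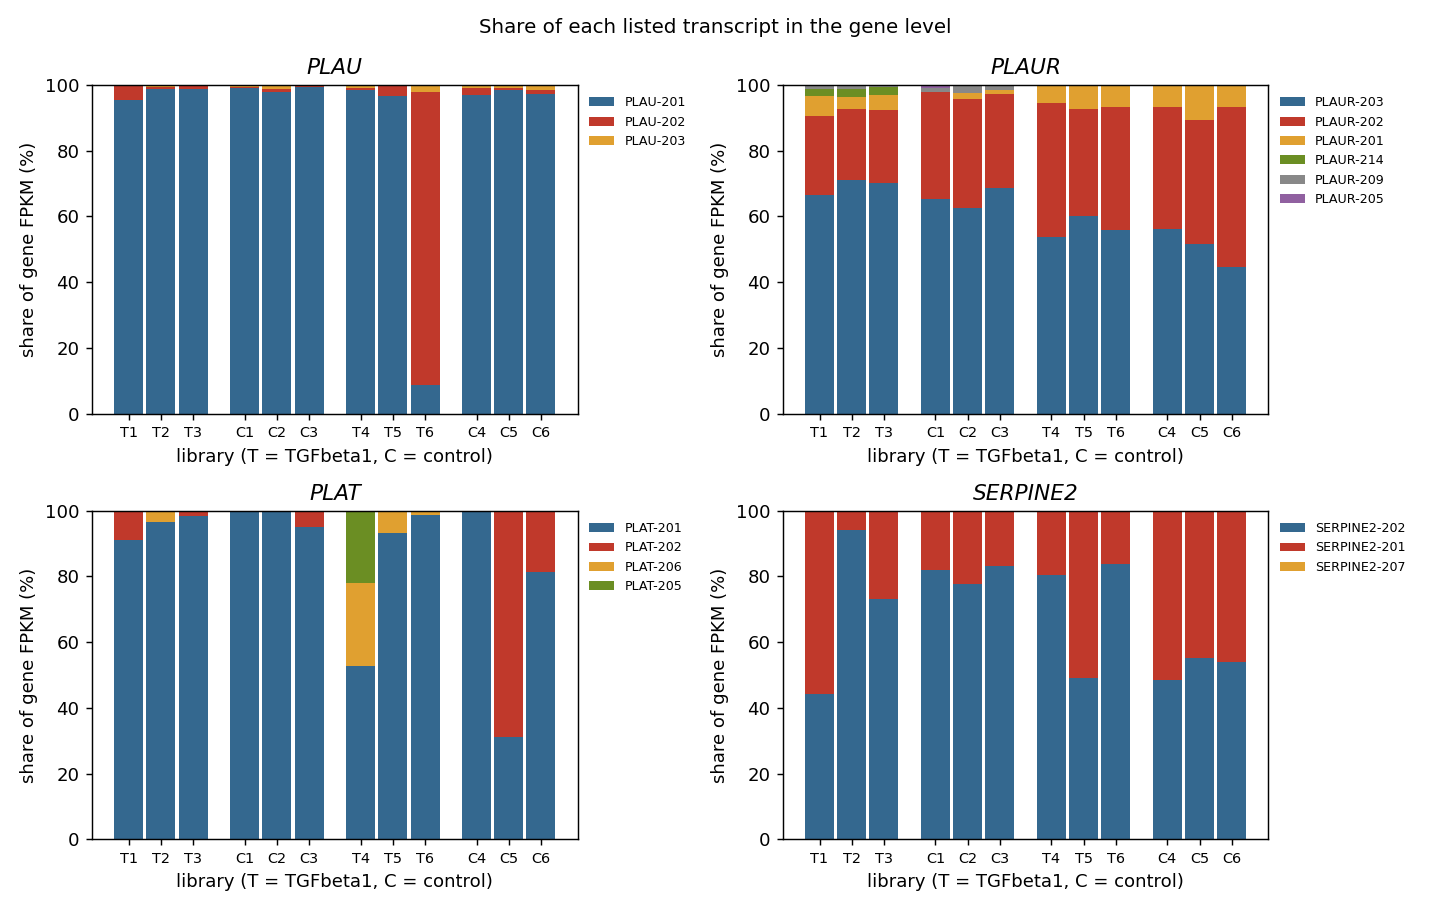
Share of each listed transcript in the FPKM of its gene (vertical axes, percent) for the 12 libraries (horizontal axes, T for libraries labelled TGFbeta1 and C for controls, first set left). PLAU-202 makes up 89.2% in T6 and at most 4.30% in the others, and the split of SERPINE2 differs between T1, T2 and T3.

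The 250 bases before the start sites of RefSeq (GRCh38.p14) were searched on both strands for CAGAC, a short element bound by SMAD proteins, the transcription factors of TGFbeta signalling, for TGANTCA, bound by AP-1, and for GGGCGG, the GC box. The windows of PLAU, PLAUR and SERPINE2 were searched. PLAT was left out of this search, so nothing is said of its start sites. The PLAU window next to PLAU-201, 25 bases from its start, held CAGAC once, 176 to 180 bases before the start, at chr10:73910952-73910956 on the plus strand, shown in the excerpt chr10:73910942-73910966. The PLAUR window, 3 bases from the start of PLAUR-202, held the reverse complement GTCTG at chr19:43670216-43670220, 47 to 51 bases before the RefSeq start (excerpt chr19:43670206-43670230). It held TGAGTCA at chr19:43670349-43670355, 180 to 186 bases before that start (excerpt chr19:43670339-43670365), both read on the minus strand. The main transcript PLAUR-203 starts at chr19:43670350, so the TGAGTCA match spans its start and the GTCTG match lies within its span, not before it. Capitals mark the match.
PLAU SMAD match: ttcctcagtcCAGACgctgttgggt
PLAUR SMAD match: ttcgcaaaacGTCTGggaggagtcc
PLAUR AP-1 match: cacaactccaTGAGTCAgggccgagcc
CAGAC or its complement stood in 38.0% of 35116 windows of this length, TGANTCA in 6.57% and GGGCGG in 42.6%. The SERPINE2 windows, 648 and 7810 bases from the nearest listed start, and a PLAU window 494 bases away held neither CAGAC nor TGANTCA. The GC box letters, on either strand, stood 3 times in the PLAU window next to PLAU-201 and 0 times in the other, 0 times in the PLAUR window, and 2 times and 1 time in the nearer and farther SERPINE2 windows. These matches are letters in a window and no measure of binding.

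Other genes of the system were described from lists, whose counts in the first set stand beside 9% of all genes called higher and 11.9% called lower. Of 4 tested proteases that can activate pro-urokinase, 2 rose and 1 fell, with a median log2 change of -0.07, or 0.49 without F12, which averaged under 1 FPKM with TGFbeta1. The lysosomal cathepsin CTSB averaged 87.5 ± 6.41 FPKM with TGFbeta1 and 46.1 ± 2.75 FPKM in controls, a log2 change of 0.91 (adjusted p = 0.00156). CTSL rose by 0.49 (adjusted p = 0.0176, and 0.0509 without TGFbeta1 replicate 1). ST14, the membrane protease matriptase, fell to 9.60 ± 1.85 FPKM with TGFbeta1, against 23.3 ± 2.55 FPKM in controls, a log2 change of -1.21 (adjusted p = 0.00533).

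Of 4 other inhibitors of the activators, of plasmin or of those proteases, 1 rose and 2 fell, with a median log2 change of -0.36. TFPI2, a Kunitz inhibitor of plasmin, averaged 27.2 ± 0.907 FPKM with TGFbeta1 and 10.9 ± 1.38 FPKM in controls, a log2 change of 1.25 (adjusted p = 0.00105). SERPINB2, an inhibitor of urokinase, fell to 1.11 ± 0.354 FPKM with TGFbeta1, against 6.19 ± 1.13 FPKM in controls, a log2 change of -1.77 (adjusted p = 0.00216). SPINT1, an inhibitor of matriptase, fell by 0.60 on the log2 scale (adjusted p = 0.00425). So SERPINE2 and TFPI2 rose in the first set while SERPINB2 and SPINT1 fell.

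Of 5 genes for proteins that bind plasminogen on the cell surface (ENO1, ANXA2, S100A10, PLGRKT and KRT8), 0 were called in the first set, with a median log2 change of 0.20. Of 7 endocytic receptors and their chaperone, 3 rose and 0 fell, with a median of 0.31, or 0.52 without VLDLR, which averaged under 1 FPKM in controls. MRC2, a collagen receptor that associates with the urokinase receptor, averaged 6.95 ± 0.876 FPKM with TGFbeta1 and 1.06 ± 0.305 FPKM in controls, a log2 change of 1.96 (adjusted p = 0.000932). LRP1, which takes up complexes of urokinase with serpins, averaged 13.6 ± 0.403 FPKM with TGFbeta1 and 7.22 ± 0.592 FPKM in controls, a log2 change of 0.83 (adjusted p = 0.00206). The third, LRP8, lost its call when any library but control replicate 3 was left out (adjusted p up to 0.107).

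Of 7 binding partners of the urokinase receptor, 5 rose and 0 fell, with a median of 0.80. The integrin chains ITGA5 and ITGAV rose by 1.81 (adjusted p = 0.00285) and 1.69 (adjusted p = 0.00717) on the log2 scale. ITGA3 lost its call without TGFbeta1 replicate 2 or control replicate 1 (adjusted p up to 0.0546). Of 10 plasmin substrates 9 rose and 0 fell, with a median of 2.13. One of them, MMP9, averaged 5.51 ± 0.279 FPKM with TGFbeta1 and 0.00847 ± 0.0147 FPKM in controls, and entered the test through the treated group alone, so its direction was fixed by the minimum of 1 FPKM. Without it 8 of 9 rose, with a median of 2.05. Fibronectin, FN1, averaged 214 ± 13.2 FPKM with TGFbeta1 and 26.7 ± 2.43 FPKM in controls, and tenascin, TNC, 39.9 ± 3.95 FPKM with TGFbeta1 and 4.45 ± 0.160 FPKM in controls. THBS1, among the 9, lost its call when any library but control replicate 3 was left out (adjusted p up to 0.0665).

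PLAUR belongs to the three-finger fold family, in which 1 of 7 tested genes rose and 3 fell, with a median of -0.87. CD59, an inhibitor of complement, rose by 0.83 (adjusted p = 0.00114). PSCA was listed at 2.78, 0.437 and 3.10 FPKM with TGFbeta1, against 105, 550 and 650 FPKM in controls, and its log2 change was -6.90 (adjusted p = 0.0037). SLURP1 was listed at 0 in the 3 TGFbeta1 libraries, against 5.80, 4.11 and 5.69 FPKM in controls. It entered the test through the controls alone, so its direction was fixed by the minimum, and without it 1 of 6 rose and 2 fell, with a median of -0.69. LY6E, the other gene that fell, lost its call without control replicate 1 or 3 (adjusted p up to 0.0597). The family members other than PLAUR thus included genes with changes of either sign.

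In the second set 0 genes of any of these lists were called, with medians of -0.18 to 0.21, where limma called 34 genes and 1182 had an unadjusted p under 0.05. Of the genes named, TFPI2 had a log2 change of -0.64 (adjusted p = 0.14), close to the -0.64 of SERPINE2. ENO1 was listed at 323, 301 and 936 FPKM in the libraries labelled TGFbeta1, against 892, 849 and 902 FPKM in controls. By the test of the difference between the sets, against 6.04% of all genes higher and 7.54% lower in the first set, the counts were as follows. For the receptor partners 5 of 7 were higher and 0 lower, for the substrates 8 of 10 higher and 0 lower, and for the endocytic receptors 2 of 6 higher and 0 lower. For the proteases 1 of 4 was higher and 2 lower, for the other inhibitors 2 of 5 higher and 2 lower, and for the three-finger family 0 of 6 higher and 2 lower. Of the plasminogen binding proteins 0 of 5 were called. SERPINA5, 1 of the 2 higher inhibitors, averaged 0.809 FPKM with TGFbeta1 and 0.394 FPKM in controls of the first set. In the second set it averaged 1.31 FPKM in the libraries labelled TGFbeta1 and 2.52 FPKM in controls. It entered this fit through the second set, highest in its controls, so its count is no support for a change in the first set.

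**Figure D5:**
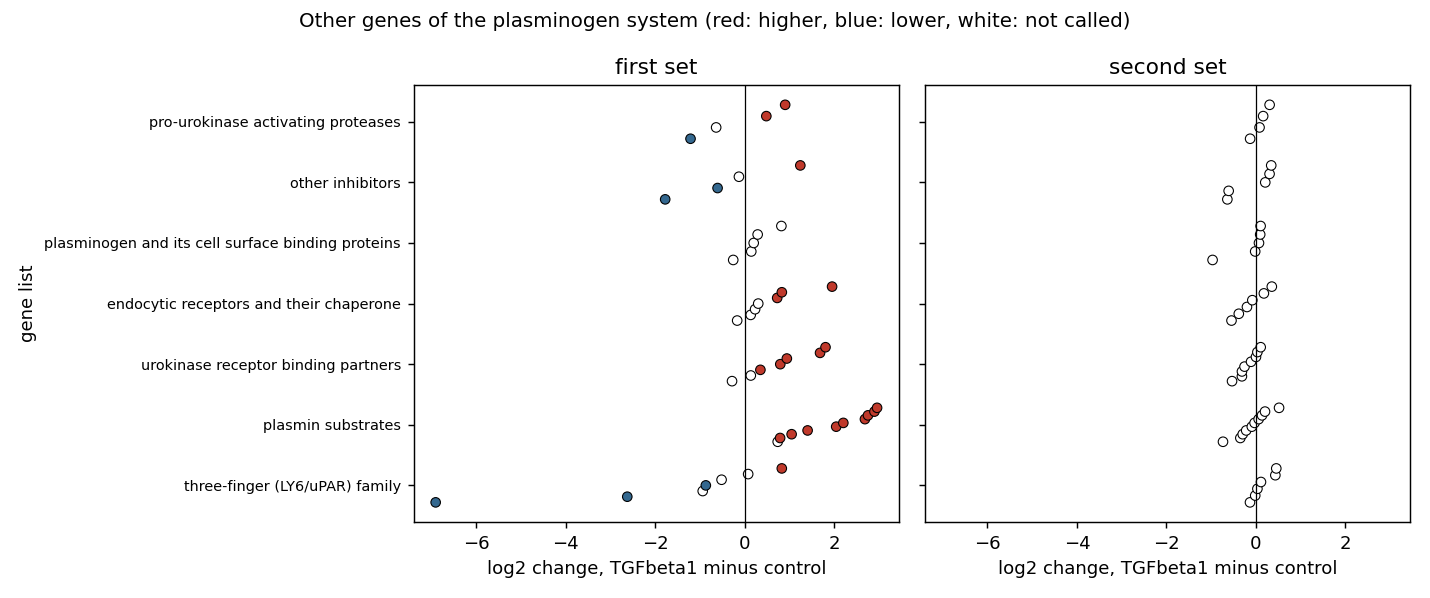
Log2 change of each tested gene (horizontal axis, TGFbeta1 minus control) in the lists of the plasminogen system (vertical axis), first set left and second set right; red is higher, blue lower and white not called. In the first set 9 of 10 plasmin substrates are red, and in the second set every point is white.

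The genes with the pattern most like each member were ranked by Pearson r over the 12 libraries, on log2(FPKM + 1) centred on the mean of each set, among 10005 genes. The libraries share set and group, so these values describe likeness and carry no test. PLAU was closest to COL17A1 (r = 0.99), LGALS1 (0.98) and SEC24D (0.98), and PLAUR to LGALS1 (0.98), ETV6 (0.98) and ITGB6 (0.98). LGALS1 was thus among the closest 3 of both. SERPINE2 was closest to TFPI2 (0.97), NECTIN3 (0.96) and CTGF (0.96), and PLAT to MYDGF (0.92), KIFC1 (0.89) and BUB1 (0.88). CTGF rose in the first set (log2 change 1.65, adjusted p = 0.0045) and fell in the libraries labelled TGFbeta1 of the second (-0.61, adjusted p = 0.0491), where no gene was called without control replicate 4. Between members, r was 0.97 for PLAU with PLAUR, 0.77 for PLAU with SERPINE2 and 0.11 for PLAT with SERPINE2.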

How the data were processed

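RNA of 12 MCF-12A libraries was extracted with Trizol and sequenced with Illumina libraries, per the labels. Per the submitters' processing notes, reads were handled with StringTie 1.2.3, HISAT2 2.0.4, cutadapt and FastQC on hg19; how they were set, the strand handling and the annotation release were not given in the sources used here. Both tables hold FPKM per transcript as deposited by the authors. The second table's file headers name FPKM for its group means, and the unit of the first was inferred from its values. Per the file headers, the authors also deposited log2 group means, a log2 fold change, a linear fold (ratio) and p-values and q-values for the second table. Transcripts were listed down to a mean of 0.025 FPKM in the first table and 0.250 FPKM in the second, so the tables were tested apart. FPKM holds no counts, so counting error is unknown.

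Transcripts were summed per gene. Genes with a mean of at least 1 FPKM were tested two-sided with limma 3.58.1 (R 4.3.3) on log2(FPKM + 1), empirical Bayes with trend and Benjamini-Hochberg adjustment over all genes tested, with a call at an adjusted p under 0.05. Log2 changes understate changes of low genes. The fit of all 12 libraries used the set, the agent and their interaction. Per-transcript fits were added after seeing the data. The procedure was tested on simulated data. Beside the members, up to 2 genes called in each direction were named per list, those with the largest change, with the 10 genes of the TGFbeta check and the 3 genes most like each member. The members and lists were chosen with earlier results of these data known. Same-numbered libraries were checked for pairing: their deviations correlated at 0.00746 to 0.0457, under 0.1, so numbers were not taken to pair samples. Libraries of different number correlated at -0.0534 to 0.0137. In the second set every same-numbered value was above these, so a weak pairing remains possible. Alternatives were another pseudocount (0.1), filters of none and 5 FPKM, median-of-ratios, equal-sum and quantile scaling, no trend, transcripts of both tables, a replicate block and leaving out each library. Figures used matplotlib 3.10.9.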

Additional observations from a re-analysis of the deposited data

Results flagged for a closer look

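In 3 of the 4 genes the difference between the libraries labelled TGFbeta1 and the controls was not the same in the first and the second set, by the test of the difference in the limma fit. The difference in log2 change, first set minus second set, was 2.63 for PLAU, 1.59 for PLAUR and 2.03 for SERPINE2. With sums over the transcripts listed in both tables these were 2.63, 1.57 and 2.03, all called (adjusted p = 0.00015, 0.00074 and 0.000142). The second set's libraries labelled TGFbeta1 lacked the response of the check genes, and the set and its table cannot be told apart. Single libraries were not screened, because each group holds 3.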

How the results depend on the processing

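PLAU, PLAUR and SERPINE2 kept their direction and call in the first set under all 16 alternatives, with log2 changes of 3.01 to 3.41, 1.66 to 1.88 and 1.12 to 1.499 and adjusted p up to 0.0117, 0.0118 and 0.0406, the last for SERPINE2-202 in place of the gene sum among genes; among transcripts it was not called (0.0979). PLAT in the first set ranged from 0.29 to 0.54 when a library was left out, and was called without control replicate 3 (0.5415, adjusted p = 0.0125; over all alternatives 0.0125 to 0.309). PLAU in the second set ranged from 0.52 to 0.77, and was called without replicate 6 labelled TGFbeta1 (0.7692, adjusted p = 0.0481; over all alternatives 0.0481 to 0.9). With PLAU-201 alone, an alternative added after seeing the data, its sign turned (-0.4847, adjusted p = 0.9), and the difference between the sets was 3.704 (adjusted p = 0.0598); replicate 6 carried PLAU-202 instead. The other results on the 4 genes kept direction and call, but uncalled values moved: PLAUR in the second set was 0.045 without control replicate 5 and 0.34 without control replicate 6, and the difference between sets of PLAT was -0.061 without control replicate 3, -0.087 without replicate 4 labelled TGFbeta1 and -0.12 without control replicate 4. Calls over all genes in the first set numbered 2186, 1354 to 2030 with a library left out, and in the second 34, 0 to 23 with a library left out, 17 with equal sums and 20 without trend; 0 were called without control replicate 4. The number of calls in the fit of both sets stayed within 1.5 times. Equal sums moved the share of higher calls in the first set to 57.7%, against 43%, and in the fit of both sets to 59.7%, against 44.5%. The replicate block gave 1211 calls in the first set, 0 in the second, where 1182 genes had an unadjusted p under 0.05 without it, and 1112 for the difference; it changed no call of the 4 genes, but CTSL, ITGA3 and LY6E had adjusted p of 0.0522, 0.0573 and 0.0683 with it. Numbers were not taken to pair the samples, but the check of deviations cannot settle this. FPKM without counts gives no counting error for low genes such as PLAT.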
